A study of Mus musculus with 30 samples.

Results

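The gut homing receptor genes Ccr9, Itga4, Itgb7 and Gpr15, the transcription factor gene Hic1 and the retinoic acid synthesis gene Aldh1a2 were followed in lymphoid CD4+ and CD11c+ cells of mice fed or injected with the same protein antigen. The members were the probe sets annotated to exactly 1 of these 6 symbols, and where a gene had several, the brightest over all 30 arrays was kept. All 6 were on the array, of 17097 genes represented. The first 5, the homing genes, are described mainly in CD4+ cells and Aldh1a2 mainly in CD11c+ cells.

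All mice were DO11.10 RAG2-/- on the BALB/c background, aged 8 to 10 weeks: they carry a transgenic T cell receptor for an ovalbumin (OVA) peptide, and without RAG2 they form neither B cells nor other T cells. In each cell type there were 5 groups of 3 arrays. The abatacept group was primed with 100 µg OVA in complete Freund's adjuvant (CFA) under the skin and given 10 mg/kg abatacept, a CTLA4-Ig fusion protein that binds CD80 and CD86. The tolerised group drank OVA in water, at an amount of 50 that the labels give per ml in one place and per kg in another. The IgG group was primed and given 10 mg/kg control IgG, the primed group was only primed, and the unimmunised group received nothing. In the abatacept, IgG and primed groups cells were taken 10 days after immunisation. CD4+ cells, enriched by negative magnetic selection, came from axillary lymph nodes in the abatacept, IgG and primed groups, from mesenteric nodes in the tolerised and from nodes and spleen together in the unimmunised group. Treatment and site of origin therefore cannot be told apart in any CD4+ comparison with the tolerised or unimmunised group. CD11c+ cells, selected with microbeads, came from pooled nodes and spleen in every group. The labels give over 90% purity for both, and do not say whether the 3 arrays of a group are separate mice, so p-values measure the spread between these arrays, which may be technical.

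Lymphocytes reach the small intestine by means of CCR9, the receptor for the chemokine CCL25, and of the integrin formed by the alpha chain Itga4 and the beta chain Itgb7, which binds MAdCAM-1 on gut venules. GPR15 is a receptor that directs T cells to the large intestine. Dendritic cells of the gut and its draining nodes make retinoic acid with the retinal dehydrogenase encoded by Aldh1a2, and retinoic acid given to T cells during activation induces CCR9 and the gut integrin. HIC1 is a zinc finger repressor that retinoic acid induces in intestinal T cells of the mouse.

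The labelled cell types were checked against marker genes. The mean log2 value of 9 T cell markers was 9.88 to 10.24 on the CD4+ arrays of the abatacept, tolerised, IgG and primed groups and 8.86 to 8.98 on those of the unimmunised group, against 5.82 to 7.28 on CD11c+ arrays. Itgax, which encodes CD11c, had log2 values of 9.56 to 10.29 on CD11c+ arrays and 3.30 to 7.04 on CD4+ arrays. The unimmunised CD4+ arrays stood apart: the mean of 8 monocyte and macrophage markers was 8.41 to 8.64 there, against 4.03 to 4.21 in the abatacept, 4.78 to 6.25 in the tolerised, 4.34 to 4.42 in the IgG and 4.33 to 4.46 in the primed CD4+ group. The 10 neutrophil markers likewise averaged 9.62 to 9.88 on the unimmunised CD4+ arrays and 3.45 to 5.31 on the other CD4+ arrays. A set of 9 mast cell and basophil markers averaged 4.43 to 5.93 on the tolerised CD4+ arrays, against 3.41 to 3.58 on the primed ones. In bulk RNA of this kind, fewer cells of a type and less RNA per cell cannot be told apart. Transcripts of 3 Y-linked genes also differed between groups: their mean was 7.40 to 7.73 in tolerised and 7.57 to 7.65 in primed CD4+ cells, against 2.84 to 3.08 in the abatacept, IgG and unimmunised CD4+ cells. In CD11c+ cells it was 2.79 to 2.85 in the abatacept, 2.81 to 2.999 in the tolerised, 4.71 to 7.27 in the IgG, 7.01 to 7.40 in the primed and 2.87 to 3.08 in the unimmunised group. Xist, the transcript of the inactive X chromosome, was 5.61 to 7.28 in tolerised and 9.31 to 10.89 in primed CD4+ cells, and 11.07 to 11.43 in the other CD4+ groups. In CD4+ cells the Y-linked mean was alike in tolerised and primed cells, but their Xist values did not overlap and differed by -3.99, so that treatment and sex cannot be told apart there either. The primed CD4+ arrays were high in both measures, so sex may be mixed within an array. Both measures were alike in abatacept and IgG CD4+ cells. The other 4 CD4+ comparisons below set groups high in Y-linked transcripts against groups low in them. So do those of CD11c+ cells between the primed or IgG group and any of the other 3. In all of these treatment and sex cannot be told apart. IgG and primed CD11c+ cells were both high in Y-linked transcripts. Their Xist values did not overlap, at 6.29, 11.02 and 8.88 in IgG and 4.12 to 4.84 in primed cells. The same limit therefore holds between them. Amy1, a salivary amylase gene, was above a log2 value of 7 on 5 of the 15 CD11c+ arrays.

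All values below are log2 RMA values, and a difference is the mean of the first-named group minus that of the second. A gene was tested where 3 or more arrays, of the 15 of a cell type, had it above their own median, and was called at a limma p under 0.05 after Benjamini-Hochberg adjustment over all genes tested. By that rule 10322 genes were tested in CD4+ cells and 10203 in CD11c+ cells. Aldh1a2 was below the filter in CD4+ cells and Gpr15 in CD11c+ cells, so that 5 of the 6 members were tested in each. The 6 genes lie on 5 chromosomes of GRCm38.p6, in RefSeq coordinates: Ccr9 at chr9:123767211-123783457, Itga4 at chr2:79255426-79333114, Itgb7 at chr15:102215994-102233405, Gpr15 at chr16:58716643-58718872, Hic1 at chr11:75161377-75170255 and Aldh1a2 at chr9:71215789-71296243.

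Ccr9 and Hic1 were high in the CD4+ cells of orally tolerised mice, and both were lower in those of all other groups. In these other groups Ccr9 stayed above the array median on every array, while Hic1 was near or below it. Itga4 was high in tolerised and unimmunised CD4+ cells and lower in the abatacept, IgG and primed groups, and Itgb7, its partner chain, was highest in primed CD4+ cells. Against primed cells, 3 of the 5 homing genes tested were higher in tolerised cells and 1 was lower, where 14.7% of all genes were called, 6.24% higher and 8.43% lower. Among the 10322 genes ranked by the size of that difference, Ccr9 was the 42nd and Itga4 the 79th. Hic1 passed the filter through its 3 tolerised arrays and 1 abatacept array, so it entered the test mainly through the group where it is high. Its rank is therefore not given, and its place in the count of higher genes has the same limit.

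Ccr9 had log2 values of 6.39, 6.30 and 6.52 in abatacept, 8.75, 9.03 and 8.55 in tolerised, 6.60, 6.31 and 6.68 in IgG, 6.18, 6.73 and 6.43 in primed, and 6.17, 6.20 and 6.26 in unimmunised CD4+ cells. Every tolerised array lay above every array of the other groups, whose values overlapped except that all unimmunised arrays were below all abatacept and IgG arrays. Ccr9 was higher in tolerised than in primed cells by 2.33 ± 0.15 (SE, n = 3 each), a 5.02-fold difference (limma adjusted p = 9.43e-07). It was higher in tolerised than in unimmunised cells by 2.57 ± 0.15, with an adjusted p of 1.23e-08 by limma. Between primed and unimmunised cells it differed by 0.24, with a 95% interval of -0.08 to 0.55, which did not pass the test (limma adjusted p = 0.209).

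Hic1 had log2 values of 3.83, 4.51 and 3.91 in abatacept, 7.77, 7.93 and 7.77 in tolerised, 3.70, 3.41 and 3.71 in IgG, 3.92, 3.77 and 3.85 in primed, and 3.81, 3.95 and 3.97 in unimmunised CD4+ cells. Outside the tolerised group all values but that of abatacept replicate 2 were below the median of their array, which ran from 4.46 to 4.54 over all 30 arrays. The difference between tolerised and primed cells was 3.98 ± 0.15 (SE, n = 3 each), or 15.8-fold on a scale where the primed level is near the array's floor. Since the filter let Hic1 in mainly through its tolerised arrays, p-values here are from a fit with no filter on low values. The limma adjusted p was 3.41e-09. Against unimmunised cells the difference was 3.91 ± 0.15, with a limma adjusted p of 1.08e-10 with no filter. Between primed and unimmunised cells the difference was -0.07, with a 95% interval of -0.39 to 0.26.

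Several lists of markers of other cells had a higher mean in tolerised than in primed CD4+ cells. Some of these lists were higher still in the unimmunised group, and others were lower there. All 8 mast cell and basophil markers tested and 6 of 8 red pulp macrophage markers were called higher in tolerised than in primed cells, where 6.24% of all genes were. The unimmunised CD4+ arrays held these 2 lists and the monocyte and macrophage list at a higher mean than any tolerised array, and their Ccr9 and Hic1 values were 6.17 to 6.26 and 3.81 to 3.97. Within the tolerised group the monocyte and macrophage mean was 6.25, 5.33 and 4.78 on replicates 1, 2 and 3, and Ccr9 and Hic1 were both highest on replicate 2. The neutrophil mean was 4.83, 5.31 and 4.20 in the same order, also highest on replicate 2. The 4 markers of the innate lymphoid cell list averaged 5.51 to 5.58 in abatacept, 6.83 to 7.21 in tolerised and 6.21 to 6.39 in IgG cells. In primed and unimmunised CD4+ cells they averaged 6.04 to 6.53 and 5.99 to 6.17. Their mean was also highest on tolerised replicate 2. Of the 3 genes of this list tested, Il17rb was called higher in tolerised than in primed cells (difference 1.55, limma adjusted p = 0.000358). The 12 stromal and endothelial markers, of which 9 in tolerised and 10 in primed and unimmunised cells were below the median on all 3 arrays, had means of 3.91 to 4.15 in tolerised, 3.74 to 3.86 in primed and 3.65 to 3.73 in unimmunised CD4+ cells. Unimmunised cells came from nodes and spleen together and tolerised cells from mesenteric nodes, so the other cells among them need not be alike. The part of other cells in the Ccr9 and Hic1 levels was not tested.

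**Figure D1:**
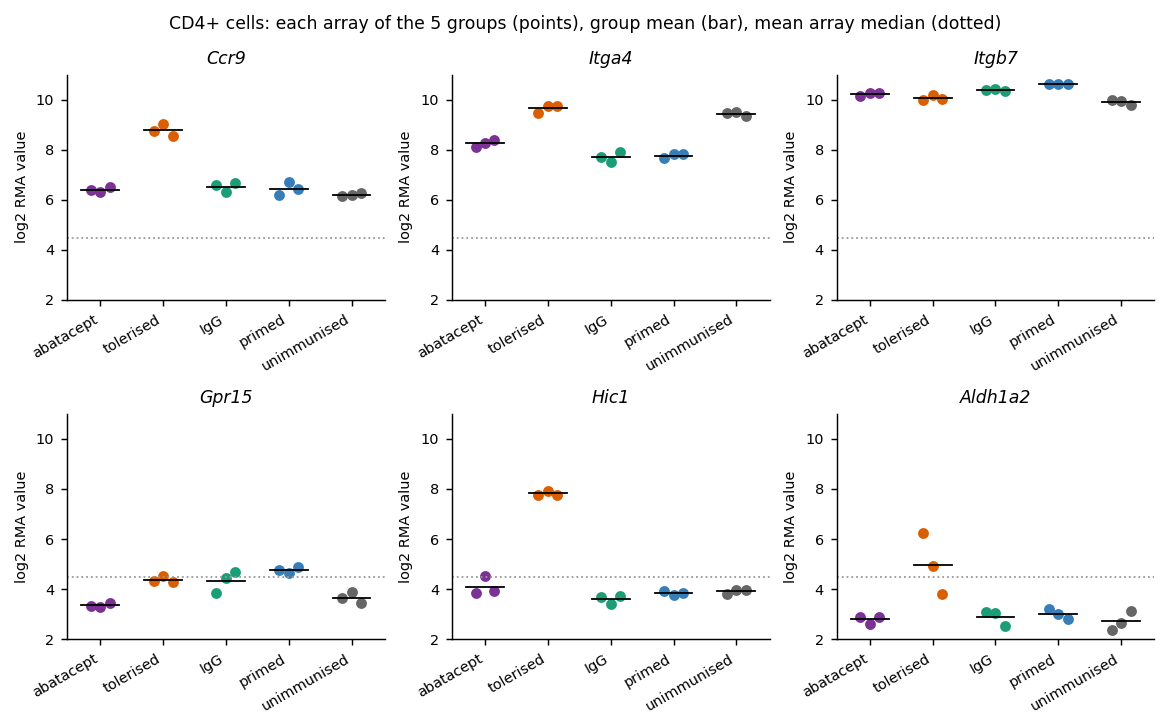
Log2 RMA values of the 6 genes on each CD4+ array of the abatacept, tolerised, IgG, primed and unimmunised groups; points are arrays, bars are means of 3 arrays, and the dotted line is the mean of the array medians. The tolerised arrays lie at 8.55 to 9.03 for Ccr9 and 7.77 to 7.93 for Hic1, above all other arrays.

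Since Ccr9, Hic1 and Itga4 were the members higher in tolerised than in primed CD4+ cells, the 250 bases before their RefSeq starts (GRCm38.p6) were read for the core letters to which retinoic acid receptors bind. The search took in AGGTCA as the core form, GGGTCA as a second form, AGTTCA as another and finally GGTTCA, on both strands, none of which contains another, and a match is in capitals. Each sequence runs 5′ to 3′ on the gene's own strand. The Ccr9 window is chr9:123766961-123767210 on the plus strand, the Hic1 window chr11:75170256-75170505 on the minus strand and the Itga4 window chr2:79255176-79255425 on the plus strand.
Ccr9: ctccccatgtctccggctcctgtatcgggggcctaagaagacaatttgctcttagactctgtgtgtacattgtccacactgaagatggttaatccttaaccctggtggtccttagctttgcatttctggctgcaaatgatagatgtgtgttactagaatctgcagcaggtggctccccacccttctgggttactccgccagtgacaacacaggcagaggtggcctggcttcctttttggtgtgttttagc
Hic1: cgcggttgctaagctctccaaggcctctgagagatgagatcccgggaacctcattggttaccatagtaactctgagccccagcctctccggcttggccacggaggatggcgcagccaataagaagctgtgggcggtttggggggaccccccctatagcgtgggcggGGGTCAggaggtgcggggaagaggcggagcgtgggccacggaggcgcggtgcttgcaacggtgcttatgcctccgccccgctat
Itga4: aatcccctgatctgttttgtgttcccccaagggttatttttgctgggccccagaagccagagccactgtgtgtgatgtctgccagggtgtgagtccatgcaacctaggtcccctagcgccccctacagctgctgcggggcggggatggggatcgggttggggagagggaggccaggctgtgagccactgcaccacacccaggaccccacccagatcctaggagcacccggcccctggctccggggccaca
The Hic1 window held 1 match, GGGTCA, which began 84 bases before the start, and neither of the other windows held any. RefSeq windows were at hand for all 6 members, 7 windows in all since Hic1 has a second start, and that second Hic1 window and the Itgb7 window each held 1 GGGTCA match. Of all 32851 windows of this length in the table, 38.6% held at least 1 of the 4 motifs and 11.6% held GGGTCA. A tandem pair of the core letters with a spacer of 2 or 5 bases was in none of the member windows, and in 0.174% and 0.0883% of all windows.

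Itga4, the alpha chain shared by the gut integrin and an integrin that binds VCAM-1, had log2 values of 8.10, 8.26 and 8.39 in abatacept, 9.46, 9.74 and 9.73 in tolerised, 7.72, 7.52 and 7.89 in IgG, 7.66, 7.82 and 7.82 in primed, and 9.46, 9.49 and 9.34 in unimmunised CD4+ cells. The tolerised and unimmunised arrays overlapped, the abatacept arrays lay between them and those of the IgG and primed groups, and these last overlapped. Itga4 was higher in tolerised than in primed cells by 1.88 ± 0.11 (SE, n = 3 each, limma adjusted p = 6.47e-07). It fell in primed against unimmunised cells, by 1.66 ± 0.11 with a limma adjusted p of 5.22e-08. The difference between tolerised and unimmunised cells, 0.22 with a 95% interval of -0.03 to 0.46, did not pass the test (limma adjusted p = 0.129), and it was 0.31 and passed without tolerised replicate 1 (limma adjusted p = 0.0487).

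Itgb7, the beta chain, ran the other way over a narrower range. Its log2 values were 10.14, 10.25 and 10.27 in abatacept, 9.99, 10.17 and 10.02 in tolerised, 10.38, 10.43 and 10.32 in IgG, 10.64, 10.61 and 10.64 in primed, and 9.98, 9.94 and 9.77 in unimmunised CD4+ cells. The primed arrays lay above all others and the tolerised arrays just above the unimmunised ones. It was lower in tolerised than in primed cells by 0.57 (difference -0.57 ± 0.08, SE, n = 3 each, limma adjusted p = 0.000327), and higher in primed than in unimmunised cells by 0.74 ± 0.08 (limma adjusted p = 3.46e-06). Tolerised and unimmunised cells differed by 0.16, with a 95% interval of -0.004 to 0.33 (limma adjusted p = 0.0964), and normalizing the arrays by quantiles a second time gave 0.21 and a call.

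Gpr15 was near or below the array median throughout, so its values are close to the floor of the measurement. They were 3.35, 3.28 and 3.44 in abatacept, 4.32, 4.51 and 4.27 in tolerised, 3.83, 4.42 and 4.69 in IgG, 4.76, 4.64 and 4.89 in primed, and 3.64, 3.90 and 3.44 in unimmunised CD4+ cells. The abatacept arrays were the lowest, all primed arrays lay above all tolerised ones, and the IgG arrays overlapped with the primed, tolerised and unimmunised ones. Gpr15 was higher in primed than in unimmunised cells by 1.10 ± 0.18 (SE, n = 3 each, limma adjusted p = 0.000189) and higher in tolerised than in unimmunised cells by 0.71 ± 0.18 (limma adjusted p = 0.00485). The gene passed the filter through its 3 primed arrays, 1 tolerised and 1 IgG array, and all unimmunised arrays were below their medians, so these differences are against values near the floor. The difference between tolerised and primed cells, -0.39 with a 95% interval of -0.78 to -0.01, did not pass the adjusted test (limma adjusted p = 0.168).

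Against unimmunised CD4+ cells, 3 of the 5 homing genes were higher in tolerised cells, Ccr9, Gpr15 and Hic1, where 49.5% of all genes were called, 20.3% higher and 29.3% lower. In primed cells 2 were higher, Itgb7 and Gpr15, and Itga4 was lower, where 47.4% were called, 23.3% higher and 24.2% lower. These shares cover close to every other gene and both comparisons use the same unimmunised arrays, with their high markers of other cells. Hic1 and Gpr15 passed the filter mainly through groups in which they were high. None of the 5 homing genes was called between IgG and primed CD4+ cells, where 0.0872% of genes were. At an unadjusted limma p under 0.05, 873 of the 10322 genes passed, Itgb7 (difference -0.25) and Gpr15 (difference -0.45) among them, with adjusted p of 0.443 and 0.557 by limma.

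Abatacept was compared with the control IgG, since both groups were primed and their CD4+ cells came from the same nodes. Gpr15 was lower under abatacept and Itga4 and Hic1 were higher, 3 of the 5 homing genes, where 16.7% of all genes were called, 3.33% higher and 13.4% lower. Gpr15 fell by 0.96 ± 0.18 (SE, n = 3 each), to a mean of 3.35 in abatacept against 4.31 in IgG cells (limma adjusted p = 0.0027). It passed the filter mainly through its primed arrays, and all abatacept arrays and all but 1 of the IgG arrays were below their medians. This difference is thus between values near the floor, and with no filter its limma adjusted p was 0.00333. Itga4 was higher by 0.54 ± 0.11, with a limma adjusted p of 0.00571, and no array of the groups overlapped. Hic1 was higher by 0.48 ± 0.15, at values near or below the array median and with a limma adjusted p of 0.0429. It passed the filter mainly through its tolerised arrays. With no filter its limma adjusted p was 0.0627 and it was not called, so its place in the count above rests on the filter. With the filter, the call was also lost without abatacept replicate 2 (limma adjusted p = 0.135) and without IgG replicate 1, 2 or 3 (limma adjusted p = 0.065, 0.157 and 0.0675). Markers of other cells also differed between these arrays. The 2 genes of the CD8 T cell list, Cd8a and Cd8b1, averaged 6.92 to 7.03 in abatacept and 6.06 to 6.51 in IgG cells. These mice form no T cells but those with the transgenic receptor, so these 2 genes need not mark CD8 T cells. The 7 natural killer cell markers averaged 5.67 to 5.75 in abatacept and 5.11 to 5.22 in IgG cells. For the 4 innate lymphoid cell markers the means were 5.51 to 5.58 in abatacept and 6.21 to 6.39 in IgG cells. The part of all these markers in the member values was not tested. Ccr9 and Itgb7 were not called: their differences were -0.13, with a 95% interval of -0.44 to 0.19, and -0.15, with one of -0.32 to 0.01.

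Abatacept cells were also set against tolerised cells, which came from other nodes. Ccr9, Itga4, Gpr15 and Hic1, 4 of the 5 homing genes, were lower in abatacept cells, where 23.3% of all genes were called, 7.54% higher and 15.8% lower. The differences were -2.37 ± 0.15 for Ccr9, -1.39 ± 0.11 for Itga4, -1.02 ± 0.18 for Gpr15 and -3.74 ± 0.15 for Hic1 (SE, n = 3 each), with limma adjusted p of 4.06e-07, 2.95e-06, 0.00125 and 5.8e-09. Itgb7 differed by 0.17, with a 95% interval of 0.0002 to 0.33, and was not called (limma adjusted p = 0.14). This comparison shares its tolerised arrays with those against primed and unimmunised cells, and its abatacept arrays with that against IgG. Hic1 passed the filter mainly through those tolerised arrays, and with no filter its limma adjusted p was 2.67e-09. For Gpr15, which has values near the floor and passed mainly through primed arrays, the limma adjusted p with no filter was 0.00149.

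**Figure D2:**
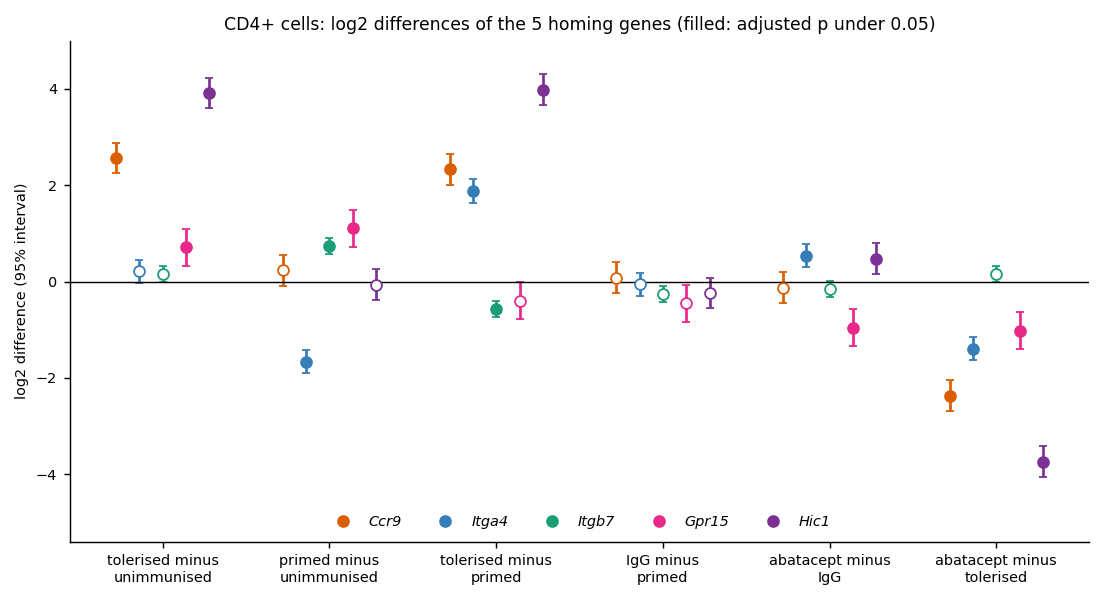
Log2 differences of the 5 homing genes between groups of CD4+ cells, first-named minus second, with 95% intervals from limma; filled points passed an adjusted p of 0.05. Hic1 and Ccr9 stand at 3.98 and 2.33 for tolerised minus primed, while all 5 genes are open points for IgG minus primed.

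The genes with several probe sets were read on each of them. Ccr9 had 4 probe sets, and the difference between tolerised and primed CD4+ cells was 2.33 on the one used and 2.63, 3.07 and 0.69 on the others, all of them called over all probe sets. The smallest was on the dimmest of the 4, with mean levels of 5.96 in tolerised and 5.27 in primed cells. Itga4 had 5 probe sets, with differences of 1.88, 1.92, 2.01, 1.80 and 0.96. The last of these was the dimmest, at 4.63 in tolerised and 3.67 in primed cells, and was not called (limma adjusted p = 0.084 over all probe sets). The other 4 genes had 1 probe set each.

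Genes with a profile like a member's were found by the root mean square distance between centred values over the 15 CD4+ arrays, where 0 is the same profile. Nearest to Ccr9 were Gfi1, Nt5e, Tbc1d4, Il17rb and Lztfl1, at distances of 0.33, 0.35, 0.35, 0.36 and 0.40, against a median of 1.01 over the 10321 other genes. Gfi1 averaged 10.16 ± 0.12 in tolerised and 7.77 ± 0.24 in primed cells (SD, n = 3 each), and Nt5e, which encodes the ectoenzyme CD73, 5.96 ± 0.17 and 4.25 ± 0.32. Lztfl1 lies 49586 bases from Ccr9 on chromosome 9 and averaged 7.46 ± 0.19 in tolerised and 5.83 ± 0.10 in primed cells (SD, n = 3 each). The 5 nearest to Hic1 were D630039A03Rik, Ccr9, Gfi1, Cfb and Trpm1, at 0.62, 0.71, 0.74, 0.82 and 0.86, against a median of 1.63. Ccr9 was thus the one member among another member's 5 nearest genes.

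The remaining members had other neighbours. Irf8 and Deptor were nearest to Itga4 (0.29 and 0.30, median 0.88), followed by Pxdc1, Plxdc2 and Ctsw. Irf8, a transcription factor gene, averaged 6.63 ± 0.28 in abatacept, 7.70 ± 0.36 in tolerised, 6.01 ± 0.20 in IgG, 6.23 ± 0.01 in primed and 7.74 ± 0.09 in unimmunised CD4+ cells (SD, n = 3 each). Tmem229b, Pde4b, Mpnd, Elmo1 and Rcsd1 were nearest to Itgb7 (0.10 to 0.12, median 0.33). For Gpr15 they were Pcbp4, Cep170b, Calhm2, Atxn1 and Gata3 (0.23 to 0.28, median 0.58). Among the homing genes themselves, Itgb7 and Gpr15 were the closest pair at 0.45, a distance above the median of 0.33 between Itgb7 and all genes, while Itga4 and Itgb7, whose products form the gut integrin together, were 1.06 apart.

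A wider list of genes for T cell traffic, most of them receptors for other sites, gave the setting. It also held Itgae, which is listed below for gut dendritic cells, the transcription factor gene Klf2 and the enzyme gene Fut7. Of 17 genes of this list tested in CD4+ cells, 2 were higher and 8 lower in tolerised than in primed cells. Over all genes 6.24% were higher and 8.43% lower. The median difference of the list was -0.37, against -0.05 over all genes. Ccr4, a receptor for skin homing, had log2 values of 5.34, 6.11 and 6.01 in tolerised and 8.02, 7.75 and 7.72 in primed cells, and differed by -2.02 (limma adjusted p = 3.45e-05). Itgb1, the partner of Itga4 in the VCAM-1 receptor, differed by -1.21, S1pr1, which lets T cells leave lymph nodes, by -0.88 and S1pr4 by -0.62. Under abatacept 9 of the 17 were lower than with IgG and 1 was higher, where 13.4% of all genes were lower and 3.33% higher. The median difference was -0.47 against -0.07 over all genes. Cxcr3, a receptor for interferon-induced chemokines, had log2 values of 5.36, 4.80 and 4.71 in abatacept and 8.06, 8.11 and 8.34 in IgG cells, a difference of -3.21 ± 0.17 (SE, n = 3 each, limma adjusted p = 1.24e-07). Ccr4 differed by -2.89, Ccr2 by -1.91 and Itgb1 by -1.45.

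Genes that retinoic acid is known to induce were also followed in CD4+ cells. Of 4 tested, 3 were higher in tolerised than in primed cells and none was lower, with a median difference of 1.77, where 6.24% of all genes were higher and 8.43% lower with a median of -0.05. Tgm2, a transglutaminase gene, had log2 values of 8.89, 7.67 and 7.19 in tolerised and 3.83, 4.03 and 4.45 in primed cells, a difference of 3.82 ± 0.33 (SE, n = 3 each, limma adjusted p = 1.26e-05). Dhrs3, a retinal reductase gene, differed by 2.53 ± 0.19 with tolerised values of 5.89 to 6.24 and primed values of 3.32 to 3.87 (limma adjusted p = 3.54e-06), and Asb2 by 1.01 ± 0.16 (limma adjusted p = 0.000889). Cyp26b1, which breaks retinoic acid down, differed by 0.28 and did not pass. The unimmunised CD4+ arrays, which held the most macrophage markers, had Tgm2 at 7.98 to 8.42, Dhrs3 at 5.62 to 5.89 and Asb2 at 6.30 to 6.56, and on the tolerised arrays Tgm2 followed the order of the macrophage marker mean. The part of other cells in these 3 genes was not tested. No gene of the list was called between abatacept and IgG CD4+ cells, where 16.7% of all genes were.

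The receptors through which retinoic acid acts were read next. Of 7 receptor and cofactor genes tested, 3 were lower and 1 was higher in tolerised than in primed CD4+ cells: Rara by -0.61, Rarg by -0.65 and Rxra by -0.52, and the coactivator gene Ncoa3 by 0.42. Over all genes 6.24% were higher and 8.43% lower in this comparison. Under abatacept Rxra was the single one called, where 16.7% of all genes were called. It was at 5.56, 5.73 and 5.93 in abatacept and 6.71, 6.89 and 6.64 in IgG cells (difference -1.01, limma adjusted p = 6.33e-05). A list of enzymes that act on retinol or retinal had 8 genes tested in CD4+ cells. Of these, the reductase gene Dhrs3, also on the response list above, was higher in tolerised than in primed cells. Adh1 (difference -1.60) and Adh5 (difference -0.28) were lower. Fabp5, a fatty acid binding protein gene whose product also carries retinoic acid, was lower under abatacept, at 8.76, 8.13 and 8.29 in abatacept and 9.56, 9.85 and 9.96 in IgG CD4+ cells (difference -1.40, limma adjusted p = 5.42e-05).

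Aldh1a2 in CD11c+ cells was high in tolerised, IgG and primed mice and low in abatacept and unimmunised mice. Its log2 values were 4.93, 4.52 and 4.43 in abatacept, 6.63, 7.38 and 6.83 in tolerised, 6.84, 5.20 and 7.29 in IgG, 6.53, 6.28 and 7.14 in primed, and 5.67, 4.61 and 5.69 in unimmunised CD11c+ cells. IgG replicate 2 stood well below the other IgG arrays and fell within the range of the unimmunised arrays. No tolerised or primed array overlapped with an abatacept or unimmunised one, and the abatacept and unimmunised arrays overlapped with each other.

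Aldh1a2 was lower under abatacept than with IgG by a difference of -1.82 ± 0.45 (SE, n = 3 each), to 0.28 of the IgG level on a scale where the abatacept level is near the array median (limma adjusted p = 0.0172, where 15.3% of all genes were called, 6.43% higher and 8.86% lower). The call was lost without abatacept replicate 2 (difference -1.76, limma adjusted p = 0.0576) and without IgG replicate 1 (-1.62, adjusted p = 0.0732) or replicate 3 (-1.39, adjusted p = 0.0919). Without IgG replicate 2 the difference was -2.44. IgG replicate 2 had a Y-linked mean of 4.71, against 7.27 and 6.97 on the other IgG arrays, and an Amy1 value of 11.43. Without the 5 arrays with Amy1 above 7, which leaves 1 IgG array whose spread is taken from the other groups, the difference was -2.12 (limma adjusted p = 0.0251). The abatacept and IgG CD11c+ groups differ in their Y-linked transcripts, so that treatment and sex cannot be told apart for this result, while the tolerised and abatacept groups were both low in them.

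Against tolerised CD11c+ cells, Aldh1a2 in abatacept cells was lower by a difference of -2.32 ± 0.45 (limma adjusted p = 0.00133, where 37.5% of all genes were called, 16.6% higher and 20.9% lower). It was higher in tolerised than in unimmunised cells by 1.62 ± 0.45 (limma adjusted p = 0.00911, 48.6% of genes called, 31.9% higher and 16.7% lower). Primed cells exceeded unimmunised ones by 1.32 ± 0.45 (limma adjusted p = 0.0328, 38.6% of genes called, 25.5% higher and 13.2% lower), and this call was lost without primed replicate 1 or 3 or unimmunised replicate 2 (limma adjusted p = 0.0603, 0.122 and 0.142). Tolerised and primed cells differed by 0.30, with a 95% interval of -0.67 to 1.27 (limma adjusted p = 0.781, 2.84% of genes called, 1.39% higher and 1.45% lower), and IgG and primed cells by -0.21, with one of -1.18 to 0.77 (limma adjusted p = 0.926, 0.0196% of genes called). With 3 arrays a group, oral and subcutaneous antigen were not separated by the level of Aldh1a2 in CD11c+ cells.

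**Figure D3:**
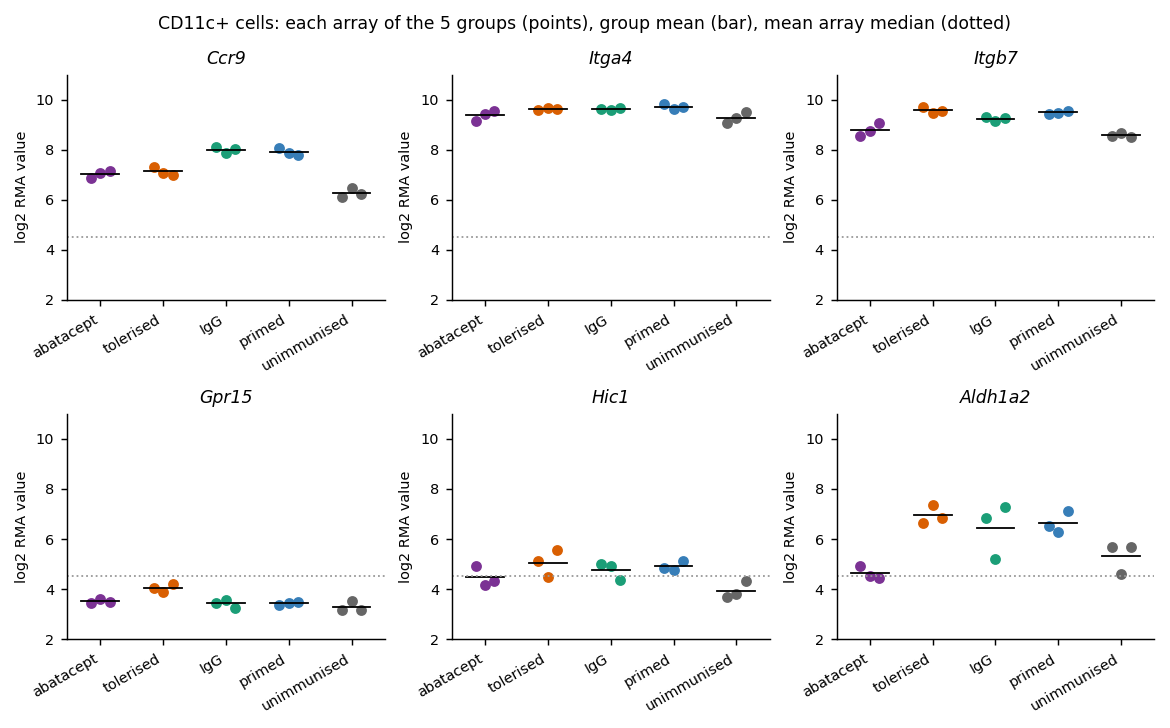
Log2 RMA values of the 6 genes on each CD11c+ array of the abatacept, tolerised, IgG, primed and unimmunised groups; points are arrays, bars are means of 3 arrays, and the dotted line is the mean of the array medians. Aldh1a2 lies at 4.43 to 4.93 under abatacept and at 6.63 to 7.38 in the tolerised group, and 1 IgG array stands at 5.20.

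Dendritic cells that have matured and moved to nodes carry their own genes, and these were read beside Aldh1a2. Of 11 such genes tested in CD11c+ cells, 10 were lower under abatacept than with IgG and none was higher. Over all genes 8.86% were lower and 6.43% higher. The median difference of the list was -1.30, against -0.02 over all genes. The chemokine gene Ccl17 had log2 values of 5.98, 5.62 and 5.12 in abatacept and 9.19, 7.78 and 9.47 in IgG cells (difference -3.24, limma adjusted p = 0.000824). Ccl22 had 7.01, 6.85 and 6.65 in abatacept and 10.12, 9.11 and 10.41 in IgG cells (difference -3.05, limma adjusted p = 0.000466). Both were lowest on IgG replicate 2 within their group, as Aldh1a2 was. Fscn1, an actin bundling protein gene, differed by -1.30 and the amino acid oxidase gene Il4i1 by -1.999. Against unimmunised CD11c+ cells, 10 of the 11 were higher and 1 lower in tolerised cells, where 31.9% of all genes were higher and 16.7% lower. In primed cells 10 were higher, where 25.5% of all genes were, while none was called between tolerised and primed cells, where 2.84% were. General dendritic cell markers moved as well: 6 of 7 were lower under abatacept than with IgG, where 8.86% of all genes were. Their mean was 8.05 to 8.21 in abatacept, 8.55 to 8.80 in tolerised and 8.49 to 8.77 in IgG cells. In primed and unimmunised CD11c+ cells it was 8.91 to 9.03 and 7.78 to 7.99. The part of these markers in the Aldh1a2 result was not tested.

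Genes tied to gut dendritic cells were mixed. Itgae, which encodes the alpha chain CD103, had log2 values of 5.86, 6.08 and 6.39 in abatacept, 8.02, 8.03 and 7.81 in tolerised, 6.91, 6.81 and 6.95 in IgG, 7.52, 7.39 and 7.31 in primed and 5.86, 5.73 and 6.63 in unimmunised CD11c+ cells. It was lower under abatacept than with IgG by a difference of -0.78 (limma adjusted p = 0.0161), and higher in tolerised than in unimmunised cells by 1.88 (limma adjusted p = 7.76e-06). Pparg went the other way, with a difference of 0.94 between abatacept and IgG, and was lower in tolerised than in primed cells by a difference of -1.09 (limma adjusted p = 0.00304). Besides Aldh1a2, 7 genes of enzymes acting on retinol or retinal were tested in CD11c+ cells. The reductase gene Dhrs3 (0.52) and Rdh10 (0.54) were higher under abatacept than with IgG and none was lower. In this comparison 6.43% of all genes were higher and 8.86% lower. Aldh1a1, another retinal dehydrogenase gene, was tested and not called between abatacept and IgG cells, and was lower in tolerised than in unimmunised CD11c+ cells (difference -1.39, limma adjusted p = 0.0442), where Aldh1a2 was higher. The retinoic acid response genes Tgm2 (0.61), Asb2 (0.53) and Dhrs3, which is on both lists, were higher under abatacept in CD11c+ cells. They were 3 of 4 tested, where 6.43% of all genes were higher. So were 3 of 8 red pulp macrophage markers, whose mean was 10.84 to 10.93 in abatacept and 10.03 to 10.58 in IgG cells, and their part in this was not tested.

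The genes nearest to Aldh1a2 in CD11c+ cells were Cass4, Insl6, Pdcd1lg2, Scn4b and Zmynd15, at distances of 0.38, 0.38, 0.42, 0.43 and 0.43 against a median of 1.01. Pdcd1lg2, which encodes the PD-1 ligand PD-L2, averaged 4.23 ± 0.09 in abatacept, 6.20 ± 0.19 in tolerised, 5.91 ± 0.67 in IgG, 5.77 ± 0.23 in primed and 4.15 ± 0.19 in unimmunised CD11c+ cells (SD, n = 3 each).

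Aldh1a2 in CD4+ cells was at 2.39 to 3.19 in the abatacept, IgG, primed and unimmunised groups, below the array median. On the tolerised CD4+ arrays it was 6.24, 4.91 and 3.80. Replicates 1 and 2 were above the array median and replicate 3 below, so the gene missed the filter of 3 arrays and was tested only without it, where the difference between tolerised and primed cells was 1.98 (limma adjusted p = 0.00867). The 8 monocyte and macrophage markers on the same arrays averaged 6.25, 5.33 and 4.78, the 7 dendritic cell markers 5.41, 4.93 and 4.56, and Ccl22 had 8.35, 7.77 and 6.95. All 3 fell in the same order as Aldh1a2, and their part in it was not tested. The unimmunised CD4+ arrays had dendritic cell marker means of 5.87 to 5.93 with Aldh1a2 at 2.39 to 3.13. Their cells came from nodes and spleen, not from mesenteric nodes alone.

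**Figure D4:**
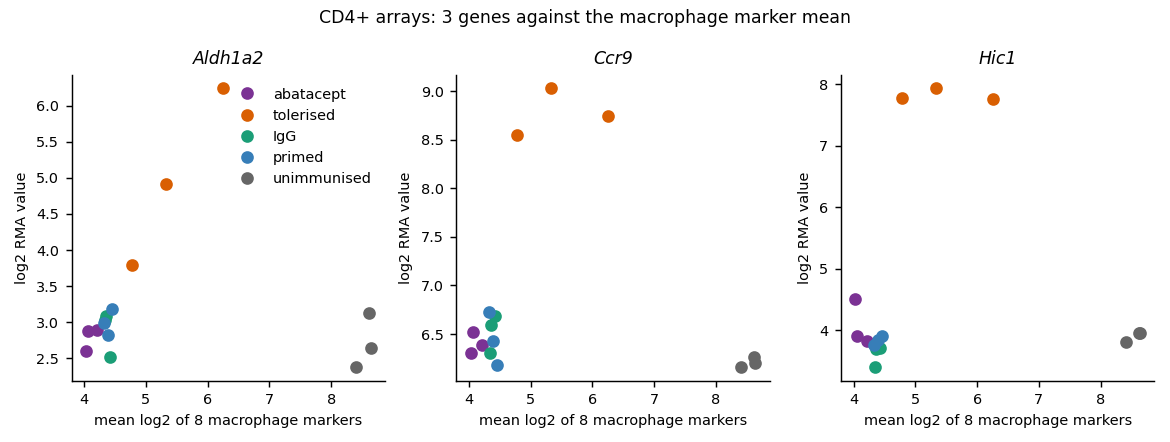
Log2 RMA values of Aldh1a2, Ccr9 and Hic1 on the 15 CD4+ arrays against the mean log2 value of 8 monocyte and macrophage markers; each point is an array, coloured by group. On the tolerised arrays Aldh1a2 lies at 6.24, 4.91 and 3.80 in the order of the marker mean. The unimmunised arrays, with means of 8.41 to 8.64, have Ccr9 at 6.17 to 6.26 and Hic1 at 3.81 to 3.97. Their cells came from nodes and spleen, those of the tolerised arrays from mesenteric nodes.

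The homing genes were also measured in CD11c+ cells, where 4 of the 5 passed the filter. Ccr9, which plasmacytoid dendritic cells carry too, had log2 values of 6.88, 7.08 and 7.15 in abatacept, 7.32, 7.07 and 7.001 in tolerised, 8.11, 7.85 and 8.03 in IgG, 8.05, 7.89 and 7.79 in primed and 6.12, 6.46 and 6.21 in unimmunised CD11c+ cells. The IgG and primed arrays lay above all others and the unimmunised ones below all others. It was lower in tolerised than in primed cells by a difference of -0.78 ± 0.12 (SE, n = 3 each, limma adjusted p = 0.00492) and lower under abatacept than with IgG by -0.96 ± 0.12 (limma adjusted p = 0.000824). Against unimmunised cells it was higher by 0.87 in tolerised and by 1.65 in primed cells, with limma adjusted p of 6.91e-05 and 1.45e-06. Of these 4 differences, only that between tolerised and unimmunised cells joined groups alike in Y-linked transcripts. The mean of 4 plasmacytoid dendritic cell markers was 6.14 to 6.20 in abatacept, 6.03 to 6.36 in tolerised, 6.64 to 6.68 in IgG, 6.39 to 6.74 in primed and 5.38 to 5.88 in unimmunised CD11c+ cells. That mean was also lowest in the unimmunised group and highest in the IgG and primed groups, and its part in the Ccr9 values was not tested.

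Itga4, Itgb7 and Hic1 were measured in CD11c+ cells as well. Itgb7 averaged 8.79 ± 0.27 in abatacept, 9.58 ± 0.11 in tolerised, 9.24 ± 0.07 in IgG, 9.49 ± 0.07 in primed and 8.57 ± 0.10 in unimmunised cells (SD, n = 3 each). It was lower under abatacept than with IgG by a difference of -0.44 (limma adjusted p = 0.0211), and leaving out abatacept replicate 1 or 2 or IgG replicate 1 or 3 ended this call (limma adjusted p = 0.0721 to 0.0963). Itga4 averaged 9.37 ± 0.21 in abatacept, 9.63 ± 0.05 in tolerised, 9.63 ± 0.05 in IgG, 9.72 ± 0.11 in primed and 9.28 ± 0.22 in unimmunised cells, and Hic1 4.48 ± 0.41, 5.05 ± 0.55, 4.76 ± 0.36, 4.91 ± 0.17 and 3.94 ± 0.34 in the same order (SD, n = 3 each). Against unimmunised CD11c+ cells all 5 members tested were called higher in tolerised and in primed cells, where 31.9% and 25.5% of genes were called higher. Without the 5 arrays with Amy1 above 7, the calls of Itga4 and Hic1 were lost in tolerised cells (differences 0.35 and 0.79, limma adjusted p = 0.14 and 0.0906) and in primed cells (0.43 and 0.91, limma adjusted p = 0.0636 and 0.05). For Itga4 in tolerised cells (difference 0.36, limma adjusted p = 0.0231) the call was lost without tolerised replicate 2 or 3 or unimmunised replicate 1 or 2, and for Hic1 in primed cells (difference 0.97, limma adjusted p = 0.0143) without primed replicate 3 or unimmunised replicate 1. The T cell marker mean of these arrays was 6.82 to 7.28 in tolerised, 6.72 to 6.94 in primed and 5.82 to 6.55 in unimmunised CD11c+ cells. The 10 neutrophil markers averaged 8.74 to 10.06 in tolerised, 8.96 to 9.20 in primed and 6.11 to 7.20 in unimmunised CD11c+ cells. The 2 genes of the CD8 T cell list, Cd8a and Cd8b1, averaged 7.49 to 7.95, 8.41 to 8.67 and 6.16 to 6.41 in the same order. In these mice they need not mark CD8 T cells. The part of these lists in the member values, Aldh1a2 included, was not tested. Gpr15 was at 3.17 to 4.21 on all CD11c+ arrays, below every array median.

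**Figure D5:**
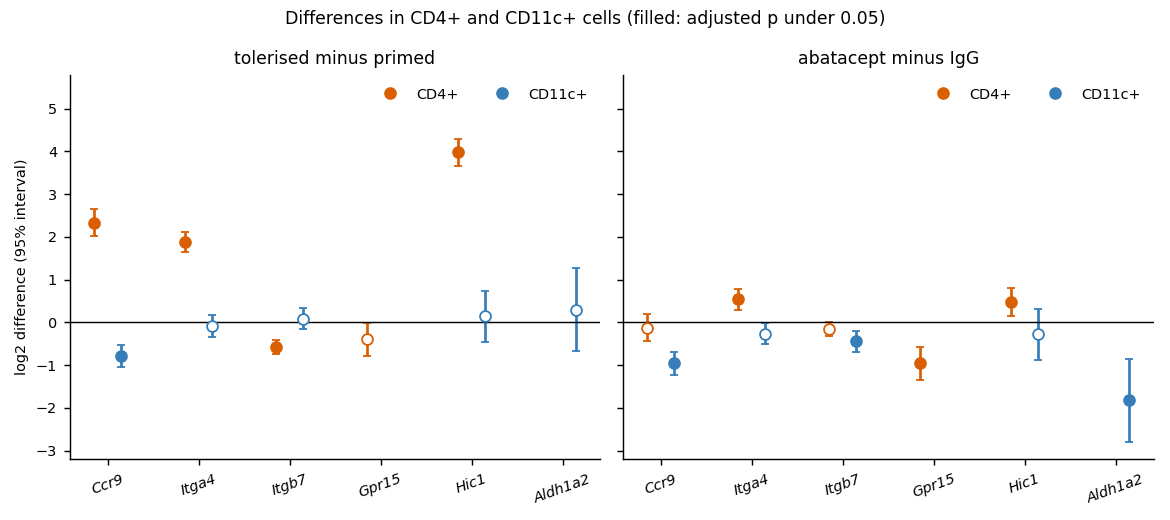
Log2 differences with 95% intervals in CD4+ and CD11c+ cells for tolerised minus primed and for abatacept minus IgG; filled points passed an adjusted p of 0.05, and a gene below the filter in a cell type has no point there. Ccr9 is at 2.33 in CD4+ and -0.78 in CD11c+ cells on the left, and Aldh1a2 at -1.82 in CD11c+ cells on the right.

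Whether a response differed between the cell types was asked with an interaction term fitted to 10838 genes on the 30 arrays. For tolerised against primed, 5 of the 6 members were called, where 11.2% of genes were: the difference in CD4+ cells exceeded that in CD11c+ cells by 3.11 for Ccr9, 1.96 for Itga4 and 3.84 for Hic1, and was below it for Itgb7 and Gpr15. For abatacept against IgG, 3 were called, Ccr9, Itga4 and Gpr15, where 14.3% of genes were. For tolerised against unimmunised, 3 were called, Ccr9, Itgb7 and Hic1, where 49% of genes were. For abatacept against IgG, Aldh1a2 was not called (CD4+ minus CD11c+ difference 1.73, 95% interval 0.36 to 3.10, limma adjusted p = 0.0827). Averaged over the 5 groups, Aldh1a2 was lower in CD4+ than in CD11c+ cells by a difference of -2.72 ± 0.21 and Itgb7 higher by 1.10 ± 0.04 (SE, 15 arrays each), where 83% of genes were called between the cell types.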

How the data were processed

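The authors deposited log2 values of 45118 probe sets on 30 Affymetrix mouse arrays, background corrected, normalized and summarised by RMA per the submitters' processing notes; the version and settings are not given in the sources used here. RMA brings the probe intensities of all arrays to one distribution, so a shift of most genes would be removed. RNA was amplified from 50 ng per the labels' protocols. Platform annotation gave 1 symbol to 28898 probe sets, several to 551 and none to 15669, which left 17097 genes. limma 3.58.1 in R 4.3.3 (lmFit, eBayes, 10 residual degrees of freedom) was fitted over the 15 arrays of each cell type, and over all 30 for the interaction. The filter, threshold and direction of differences are given in the text; the number of arrays limits the precision. Besides the 6 members, the text names at most 4 called genes with the smallest adjusted p per list and comparison, the most abundant markers, and the 5 nearest genes; the values of listed genes that were not called, and of markers whose order was compared, were chosen after they were seen. The members and lists were chosen with earlier results of these data known. Alternatives were fits on 2 groups, no filter, a second quantile normalization, array weights, a replicate block, the mean of all probe sets and leaving out single arrays; leaving out arrays high in Amy1, or the unimmunised CD4+ arrays, was added after seeing the data. Same-numbered arrays deviated together in no comparison by the rule used (0 of 12 with all correlations over 0.1). The scripts were tested on simulated data. Promoter letters are from RefSeq, build GRCm38.p6.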

Additional observations from a re-analysis of the deposited data

Results flagged for a closer look

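For these results the response differed between the cell types by the interaction test in limma (adjusted p of 5.44e-10 to 0.00534). For tolerised against primed mice, the difference in CD4+ cells minus that in CD11c+ cells was 3.11 for Ccr9, 1.96 for Itga4, -0.66 for Itgb7, -1.01 for Gpr15 and 3.84 for Hic1. Ccr9 was higher in tolerised CD4+ cells (2.33) and lower in tolerised CD11c+ cells (-0.78), the one member called in opposite directions. For abatacept against IgG it was 0.84 for Ccr9, 0.80 for Itga4 and -1.06 for Gpr15. For tolerised against unimmunised mice it was 1.70 for Ccr9, -0.85 for Itgb7 and 2.80 for Hic1. Gpr15 lay below the array median on all CD11c+ arrays. CD4+ cells came from different nodes in the tolerised, primed and unimmunised groups while CD11c+ cells came from pooled organs, so that site and cell type cannot be told apart here, other than for abatacept against IgG. Y-linked means differed between abatacept (2.79 to 2.85) and IgG (4.71 to 7.27) in CD11c+ cells and not in CD4+ cells, and likewise between tolerised and primed mice. Between tolerised and unimmunised mice they differed in CD4+ cells (7.40 to 7.73 and 2.88 to 2.94). In CD11c+ cells they were alike there (2.81 to 2.999 and 2.87 to 3.08). Sex and cell type therefore cannot be told apart in any of these comparisons.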

How the results depend on the processing

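Of the member differences, Ccr9, Itga4 and Hic1 in tolerised against primed CD4+ cells kept direction and call under all alternatives run for them, as did Gpr15 and Itga4 in abatacept against IgG CD4+ cells. The cause of the changes below was not tested. Hic1 in abatacept against IgG CD4+ cells (0.48) missed the threshold in a fit of the 2 groups (0.48, adjusted p = 0.147), without the filter (0.48, 0.0627), after a second quantile normalization (0.4506, 0.0597), with a replicate block (0.48, 0.061) and without the unimmunised arrays (0.48, 0.0691), and ran from 0.27 to 0.60 as single arrays were left out. Aldh1a2 in abatacept against IgG CD11c+ cells was -1.82 with an adjusted p of 0.0536 in the fit of 2 groups, and -2.44 to -1.39 without single arrays; in primed against unimmunised cells it was 0.969 to 1.51. In tolerised against unimmunised CD4+ cells, Itgb7 passed at 0.214 (adjusted p = 0.0249) after quantile normalization, and Itga4 ran from 0.17 to 0.31. Signs turned for differences that had not passed. Between IgG and primed CD4+ cells, Itga4 was 0.0729 with the mean of all probe sets and -0.147 to 0.0395 without single arrays, and Ccr9 -0.05 to 0.22. Between IgG and primed CD11c+ cells, Aldh1a2 was 0.0633 with array weights, 0.196 without arrays high in Amy1 and -0.63 to 0.42 without single arrays, Ccr9 -0.0654 with the mean of probe sets, and Hic1 0.1027 without arrays high in Amy1 and -0.278 to 0.0532. Between tolerised and primed CD11c+ cells, Itga4 was 0.0078 with the mean of probe sets, and Hic1 -0.1143 without arrays high in Amy1 and -0.11 to 0.44.

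Counts of called genes moved more. Tolerised against primed gave 1514 in CD4+ cells, 822 in the fit of 2 groups and 997 to 1580 without single arrays, the lowest without tolerised replicate 1; in CD11c+ cells it gave 290, then 110 in the fit of 2 groups, 532 with array weights, 80 without arrays high in Amy1 and 76 to 404 without single arrays, the lowest without primed replicate 2. Abatacept against IgG gave 1722 in CD4+ cells and 1036 to 1918 without single arrays, the lowest without abatacept replicate 3; in CD11c+ cells it gave 1560, then 2696 with weights, 433 without arrays high in Amy1 and 524 to 1826, the lowest without IgG replicate 3. Abatacept against tolerised CD4+ cells gave 2408, and 1107 in the fit of 2 groups. IgG against primed gave 9 in CD4+ cells and 15 with weights; in CD11c+ cells it gave 2, then 50 in the fit of 2 groups, 5 without the filter, 1 after quantile normalization, 150 with weights, 4 with the block, 0 with the mean of probe sets, 1 without arrays high in Amy1 and 0 to 2 without single arrays, where 1038 genes had an unadjusted limma p under 0.05. Quantile normalization changed the split in primed against unimmunised CD11c+ cells to 2098 higher and 1759 lower genes, against 2598 and 1343. The splits in tolerised against unimmunised cells became 2623 and 2684, against 2093 and 3021, in CD4+ cells and 2707 and 2068, against 3252 and 1706, in CD11c+ cells, and that in tolerised against primed CD4+ cells 700 and 704, against 644 and 870. Same-numbered arrays correlated between -0.23 and 0.28. This does not show that the numbers pair them, but with 3 arrays a group it cannot exclude pairing. With the block, 82 of 84 results kept direction and call. Levels near the array median, as for Gpr15 and Hic1, limit what their differences can show.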
